A study of Mus musculus with 6 samples.

Results

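The transcripts described here are those of the 8 genes that form the core of cellular oxygen sensing: the hypoxia-inducible factor (HIF) subunits Hif1a, Epas1 and Arnt, the prolyl hydroxylases Egln1, Egln2 and Egln3, the ubiquitin ligase receptor Vhl, and the asparaginyl hydroxylase Hif1an. They were chosen by symbol from the 54532 genes of the table, and each symbol matched 1 gene. They were measured by RNA-seq in mouse bone marrow-derived macrophages, the cultured progeny of marrow precursors. Of the 6 libraries 3 came from cells labelled NSUN2-KO, a knockout of the RNA cytosine methyltransferase NSUN2, and 3 from cells labelled NC. The design text calls the libraries biological replicates. All 6 cultures had been brought to the inflammatory M1 state with LPS and IFN-γ, and unstimulated cells are not analysed here. The sources used here do not give the meaning of NC, the way the knockout was made, the strain and age of the mice or the oxygen level in culture.

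HIF is a dimer of an oxygen-regulated alpha subunit and a stable beta subunit. In the presence of oxygen, the EGLN enzymes hydroxylate prolines of the alpha subunit, VHL recognizes the hydroxylated protein, and the ubiquitin ligase built around VHL marks it for degradation. HIF1AN, also called FIH, hydroxylates an asparagine and thereby weakens the contact between HIF and its coactivators. In macrophages LPS is known to raise Hif1a transcription, and HIF-1 then drives glycolytic and inflammatory genes. EGLN1 and EGLN3 are themselves HIF targets in many cells, a feedback that EGLN2 is not known for.

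In the NSUN2-KO libraries Egln1 and Egln3 mRNA rose, and the other 5 tested members were not called. A gene was tested when its mean over the 6 libraries was at least 1 FPKM (fragments scaled by gene length and by the assigned fragments of the library), and called at a limma adjusted p below 0.05 over all tested genes. Epas1 stayed under that mean and 7 members passed it. Of these 7, 2 were called higher and 0 lower, where 8.49% of all 9443 tested genes were called, 4.19% higher and 4.3% lower. The groups did not overlap in 4 of the 7 (Egln1, Egln3, Vhl and Hif1an), where they did not overlap in 31.1% of all tested genes.

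Because Egln1 and Egln3 moved together and Egln2 and Hif1a did not, the sequences upstream of their start sites are shown for comparison, with the core of the HIF response element, or its reverse complement, in capitals. The core was searched as ACGTG and as GCGTG on both strands, and ACGTG on both strands at once forms the E-box CACGTG, which other factors also bind. Sequences are from RefSeq on GRCm38.p6, on the strand of the gene, and leave out annotated exons, so that the stretch of Egln1 ends before its ACGTG match.
Egln1 (chr8:124949325-124949504, minus strand): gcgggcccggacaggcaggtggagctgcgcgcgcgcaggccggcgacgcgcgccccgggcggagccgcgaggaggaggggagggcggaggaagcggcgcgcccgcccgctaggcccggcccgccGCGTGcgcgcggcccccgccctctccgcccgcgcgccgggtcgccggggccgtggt
Egln3 (chr12:54203875-54204124, minus strand): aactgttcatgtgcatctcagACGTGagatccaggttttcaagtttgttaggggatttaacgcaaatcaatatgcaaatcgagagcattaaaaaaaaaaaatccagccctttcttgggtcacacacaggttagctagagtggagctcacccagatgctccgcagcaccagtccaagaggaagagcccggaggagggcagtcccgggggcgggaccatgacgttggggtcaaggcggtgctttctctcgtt
Egln2 (chr7:27166803-27167052, minus strand): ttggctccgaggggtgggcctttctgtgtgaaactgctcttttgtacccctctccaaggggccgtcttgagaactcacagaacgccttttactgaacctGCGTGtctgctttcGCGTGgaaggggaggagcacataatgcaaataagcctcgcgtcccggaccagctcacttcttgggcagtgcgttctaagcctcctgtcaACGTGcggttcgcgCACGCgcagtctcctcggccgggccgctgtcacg
Hif1a (chr12:73907617-73907866, plus strand): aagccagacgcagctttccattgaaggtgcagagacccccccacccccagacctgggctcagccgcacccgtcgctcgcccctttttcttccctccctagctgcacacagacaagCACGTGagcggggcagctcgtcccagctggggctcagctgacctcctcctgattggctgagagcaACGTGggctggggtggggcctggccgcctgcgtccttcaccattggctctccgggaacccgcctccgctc

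In the full windows of 300 bases, which reach 50 bases past the start site, Egln1 held 1 ACGTG, at -68 from the start, and 1 GCGTG, at -126. Egln3 held 1 ACGTG, at -229. The Egln2 window shown held 3 of each motif, of which a pair of ACGTG matches forms an E-box across the start site and is not in capitals, and a second RefSeq start of Egln2 held 1 GCGTG. Hif1a held 3 matches of ACGTG, of which the pair at -135 and -134 forms 1 E-box. Arnt held 1 GCGTG, and the Vhl and Hif1an windows held no match. The RefSeq table matched 7 of the 8 members, with Epas1 not among them. ACGTG occurred in 19.6%, GCGTG in 32.4% and either of them in 43.8% of all 32851 windows of that length, so matches to letters this short are common. The GC content of the windows also differed, at 86.0% for Egln1, 54.7% for Egln3, 64.3% for the Egln2 window shown and 69.3% for Hif1a. Egln2, which was not called, had the most matches of the 4 genes shown. Sequence outside the windows was not searched, and a link between matches and levels was not tested.

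Nsun2 mRNA itself was lower in NSUN2-KO but present, at 0.863 to 1.36 FPKM against 1.84 to 2.04 FPKM in NC (limma adjusted p = 0.0228). It was called in 13 of the 19 fits it entered, and not with low genes kept (adjusted p = 0.113) or when any one library other than NSUN2-KO replicate 2 was left out. The reads recovered for the genes of the table numbered 35019033 to 45636131 per library. Uty, Ddx3y, Kdm5d and Eif2s3y, genes of the Y chromosome, had reads in all NC libraries and 0 in all NSUN2-KO libraries. Xist measured 14.0 to 15.5 in NC and 29.4 to 31.8 FPKM in NSUN2-KO. The groups thus also differ in sex-linked transcripts, which cannot be told apart from the genotype. Every NC library held both Xist and Y-linked reads. Whether the libraries of a group came from separate mice or from shared cells was not tested. The SDs and p-values given here may therefore not cover variation between mice. All 10 macrophage markers were expressed, with 5 lower (Lyz2, Mrc1, Cd68, Spi1 and Fcgr1), 1 higher (Cd14) and a median log2 fold change of -0.13. Over all tested genes 4.3% were lower and 4.19% higher, the shares to set beside this and the next marker counts. Lyz2 was at 1736 ± 31.2 in NC and 1163 ± 47.1 FPKM in NSUN2-KO, and Adgre1, which was not called, at 645.3 ± 12.9 and 691.8 ± 21.2 FPKM. Of 6 tested neutrophil markers 3 were lower (Csf3r, Mmp8 and S100a9), and Ccr7 was higher among 2 tested dendritic cell markers. Lyz2, Cd14 and Csf3r were called in 20 of 20 fits, but Cd68 in 14, Spi1 in 13 and S100a9 in 12 of 20, and Ccr7 in 17 of 19. Summed in NC and in NSUN2-KO, macrophage markers reached 4059 to 4150 and 3487 to 3525 FPKM, those of neutrophils 101 to 108 and 81.7 to 85.9 FPKM with Elane at 0, and those of dendritic cells 5.75 to 6.84 and 8.87 to 10.3 FPKM. None of 11 lymphocyte markers reached the mean for testing, and Cd3e was at 0. The part of these differences in the results below was not tested.

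Hif1a (ENSMUSG00000021109, chr12:73901375-73947530, plus strand, GRCm38), the oxygen-regulated alpha subunit induced in activated macrophages, was the most abundant of the 8 by a wide margin. It measured 44.9, 42.2 and 43.8 FPKM in NC and 42.5, 44.7 and 40.9 FPKM in NSUN2-KO (replicates 1, 2 and 3 in order, as for all members). The groups overlapped, with means of 43.7 ± 1.34 for NC and 42.7 ± 1.90 FPKM for NSUN2-KO (± gives the SD over 3 libraries here and below). On the log2(FPKM + 1) scale the difference was -0.03 with a 95% interval from -0.13 to 0.07 (limma adjusted p = 0.685), so that differences larger than 8.65% down or 4.67% up on that scale lay outside the interval. Its value rested on 9048 to 11401 reads per library, and Hif1a mRNA exceeded 89.8% of tested genes. Correcting each library for its trend with GC content and length moved the Hif1a difference to -0.09 (limma adjusted p = 0.0809). Hif1a has the lowest transcript GC content of the 8, 41.0%, and across all tested genes, which are not independent, GC content and log2 fold change had a Spearman rho of -0.385.

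An antisense RNA, Gm15283, runs across the Hif1a locus and shares 330 bases (5.60%) of its exons. It measured 1.15, 1.30 and 1.38 FPKM in NC and 1.94, 1.67 and 1.71 FPKM in NSUN2-KO. Every NSUN2-KO value was above every NC value, but Gm15283 was not called (log2 fold change 0.28, limma adjusted p = 0.0642). It was singled out because it overlaps Hif1a and after its values were seen. The sources used here do not say whether counting used strand, so reads of the shared part are uncertain for both genes. The protein-coding model Gm49321, which shares a further 148 bases with Hif1a on the same strand, had 0 reads in every library.

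Epas1 (ENSMUSG00000024140, chr17:86753907-86833410, plus strand), which encodes the HIF-2 alpha subunit and is best known from endothelium, was barely detected. It measured 0.195, 0.214 and 0.173 FPKM in the NC replicates, in order, and 0.131, 0.0913 and 0.135 FPKM in those of NSUN2-KO. The NSUN2-KO libraries were all below the NC libraries, and their mean of 0.119 ± 0.024 FPKM was 61.5% of the NC mean of 0.194 ± 0.020 FPKM. The difference was not called in the 2 fits that included it: limma voom on recovered reads of genes averaging at least 10 reads, chosen after seeing the data, gave a log2 fold change of -0.70 (SE 0.36, adjusted p = 0.259), and limma without a filter on low values gave adjusted p = 0.269. Permuting the 6 values exactly between the groups gave a two-sided p = 0.1, the smallest that 3 against 3 libraries allow. Only 36 to 52 reads stood behind each NC value and 17 to 28 behind each NSUN2-KO value, and the exact Poisson 95% intervals of single libraries, which cover counting error only, overlapped between the groups except for NC replicate 2 (0.160 to 0.281 FPKM) against NSUN2-KO replicate 2 (0.0532 to 0.146 FPKM).

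Markers of other cells that could carry Epas1 were read beside it. The 10 endothelial markers summed to 32.1 to 35.7 in NC and 33.7 to 36.2 FPKM in NSUN2-KO, nearly all of it Eng, Kdr and Pecam1, none of them called. The endothelial genes Emcn and Cldn5 were at 0 in every library, and Cdh5, the cadherin of endothelial junctions, measured 0.303 ± 0.085 in NC and 0.323 ± 0.027 FPKM in NSUN2-KO. The 10 stromal fibroblast markers summed to 1.68 to 1.78 in NC and 0.758 to 1.07 FPKM in NSUN2-KO, with Col1a1 at 0.950 ± 0.036 and 0.279 ± 0.052 FPKM. The fibroblast sum thus moved in the same direction as Epas1, as did the macrophage and neutrophil sums. Much of its fall lay in Col1a1, and none of the 10 fibroblast markers reached the mean for testing. The part of fibroblasts in the Epas1 difference was not tested. In bulk RNA fewer cells of a type and less RNA per cell cannot be told apart. Hif1a exceeded Epas1 by 197.4 to 253.1 times in NC and by 301.7 to 489.2 times in NSUN2-KO, as ratios of FPKM.

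Arnt (ENSMUSG00000015522, chr3:95434388-95497240, plus strand), the shared beta subunit, measured 9.12, 8.56 and 9.02 FPKM in NC and 8.96, 8.79 and 8.61 FPKM in NSUN2-KO. The groups overlapped, with a log2 fold change of -0.02 and a 95% interval from -0.12 to 0.08 (limma adjusted p = 0.858). Arnt mRNA stood at 0.204 ± 0.0016 of Hif1a in NC and 0.206 ± 0.0081 in NSUN2-KO, a ratio that did not separate the groups (exact permutation p = 0.8).

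**Figure D1:**
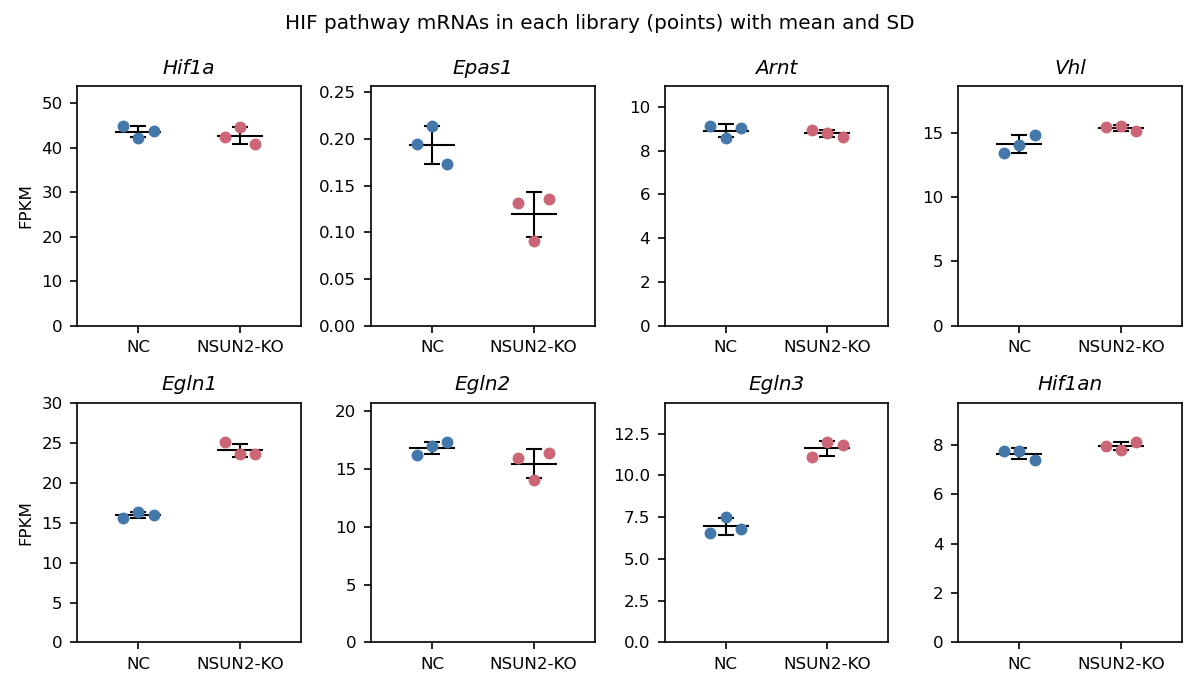
FPKM of the 8 genes, each on its own linear axis starting at 0, with 1 point per library (blue NC, red NSUN2-KO), a bar for the mean and whiskers for the SD (n = 3). The 3 NSUN2-KO points of Egln1 and Egln3 lie above all NC points, those of Hif1a and Arnt overlap them, and Epas1 lies at or under 0.214 FPKM throughout.

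Egln1 (ENSMUSG00000031987, chr8:124908587-124949324, minus strand), the prolyl hydroxylase PHD2 and the main regulator of HIF-1 alpha at normal oxygen, measured 15.6, 16.3 and 16.0 FPKM in NC and 25.1, 23.6 and 23.6 FPKM in NSUN2-KO. The groups were far apart against an SD of 0.38 FPKM for NC and 0.86 FPKM for NSUN2-KO. The mean rose by 50.9%, from 16.0 to 24.1 FPKM, and the log2 fold change was 0.56 (SE 0.04, 95% interval 0.47 to 0.66, limma adjusted p = 0.000477). Egln1 had rank 15 by p-value and rank 60 by size of increase among the 9443 tested genes.

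Egln3 (ENSMUSG00000035105, chr12:54178981-54203860, minus strand), the hydroxylase PHD3 and the member of the family with the strongest known induction by hypoxia, measured 6.58, 7.51 and 6.76 FPKM in NC and 11.1, 12.0 and 11.8 FPKM in NSUN2-KO. Again no NSUN2-KO library reached down to the NC values. The mean rose by 67.2%, from 6.95 ± 0.50 to 11.6 ± 0.46 FPKM, and the log2 fold change was 0.67 (SE 0.06, 95% interval 0.54 to 0.80, limma adjusted p = 0.000784). Egln3 had rank 36 by p-value and rank 33 by size of increase. No other gene in the annotation overlaps Egln1 or Egln3, and both kept their call in each of 20 fits, the 6 that leave out a library included. Their log2 fold changes ranged from 0.47 to 0.64 for Egln1 and from 0.48 to 0.74 for Egln3 over those fits, with adjusted p no larger than 0.00721 and 0.0105.

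Egln2 (ENSMUSG00000058709, chr7:27158658-27166802, minus strand), the hydroxylase PHD1, did not follow them. It measured 16.2, 16.9 and 17.3 FPKM in NC and 15.9, 14.0 and 16.4 FPKM in NSUN2-KO, and the groups overlapped because NSUN2-KO replicate 3 lay above NC replicate 1. Cyp2t4, on the opposite strand, shares 11 bases of its exons. The log2 fold change of Egln2 was -0.12 with a 95% interval from -0.26 to 0.02 (limma adjusted p = 0.263), which leaves increases of more than 1.38% on the log2(FPKM + 1) scale outside it. NSUN2-KO replicate 2 was the lowest value, and without it the difference was -0.05 (adjusted p = 0.523). Egln2 has the highest transcript GC content of the 8, 61.0%, and with the GC content and length trend removed its difference was -0.02 (adjusted p = 0.832).

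**Figure D2:**
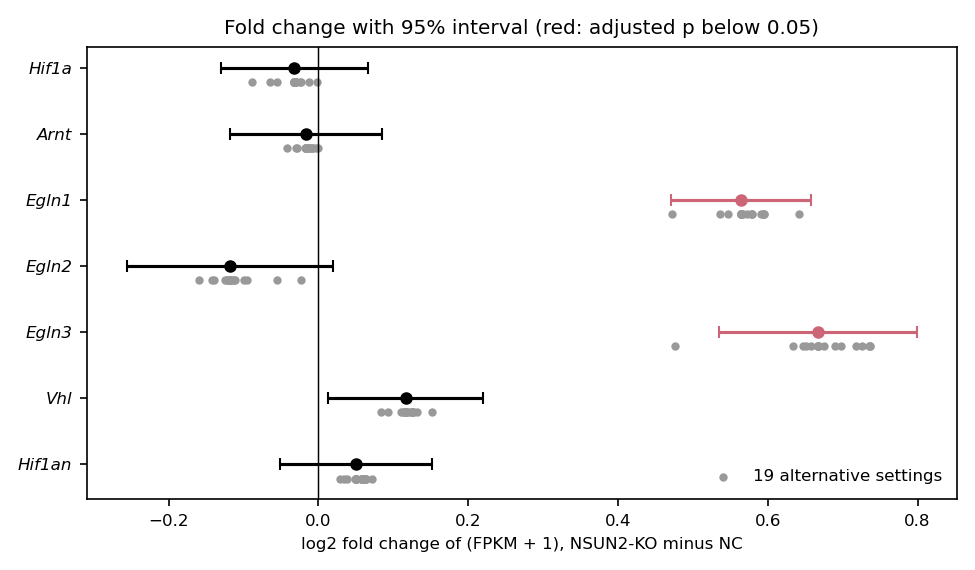
Log2 fold change of FPKM + 1, NSUN2-KO minus NC, for the 7 tested genes with 95% intervals (large points, red where the adjusted p was below 0.05) and the values under 19 alternative settings (grey points below each). Egln1 and Egln3 lie between 0.47 and 0.74 in every setting, and the other 5 lie between -0.16 and 0.15.

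The make-up of the prolyl hydroxylase mRNAs shifted with these differences. FPKM is per length, so the 3 levels can be added. Egln2 made up 42.3, 41.6 and 43.1% of the sum in NC and 30.5, 28.3 and 31.6% in NSUN2-KO. In each NC library it lay just above Egln1, whose share was 40.6, 40.0 and 40.0%. This order in NC rests on the gene lengths used, 2800 bases for Egln2 and 3594 for Egln1. In reads Egln1 exceeded Egln2 in each NC library, at 2163, 2686 and 2253 against 1755, 2173 and 1893. In NSUN2-KO Egln1 made up 48.2, 47.6 and 45.6% and was the most abundant of the 3 in every library. The Egln3 share was 17.5 ± 0.82% in NC and 22.7 ± 1.42% in NSUN2-KO. None of the 3 shares overlapped between the groups.

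The ratio of Egln1 to Egln2 was 0.950 ± 0.020 in NC and 1.57 ± 0.12 in NSUN2-KO, and that of Egln3 to Egln2 was 0.414 ± 0.027 and 0.757 ± 0.084. In contrast, the ratio of Egln1 to Egln3 overlapped between the groups, at 2.30 ± 0.11 and 2.08 ± 0.16. Summed, the 3 hydroxylases measured 39.7 ± 1.24 in NC and 51.2 ± 1.37 FPKM in NSUN2-KO. Per Hif1a, as a ratio of FPKM, the sum was 0.855, 0.966 and 0.914 in NC and 1.22, 1.11 and 1.27 in NSUN2-KO. In FPKM it thus lay below Hif1a in each NC library and above it in each NSUN2-KO library. In reads not divided by gene length it lay below Hif1a in every library of both groups. Of 13 such shares, sums and ratios, 10 did not overlap between the groups, each with an exact two-sided permutation p = 0.1, the smallest possible, and p = 0.13 after Benjamini-Hochberg adjustment over the 13. They share their genes and libraries and are not independent of the fold changes above. The ratio of Epas1 and Hif1a enters in both directions, and the 3 shares depend on each other, so the count overstates the separate results. The sum in FPKM, the ratios among the 3 hydroxylases and Hif1a per Epas1 were added to the planned measures.

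**Figure D3:**
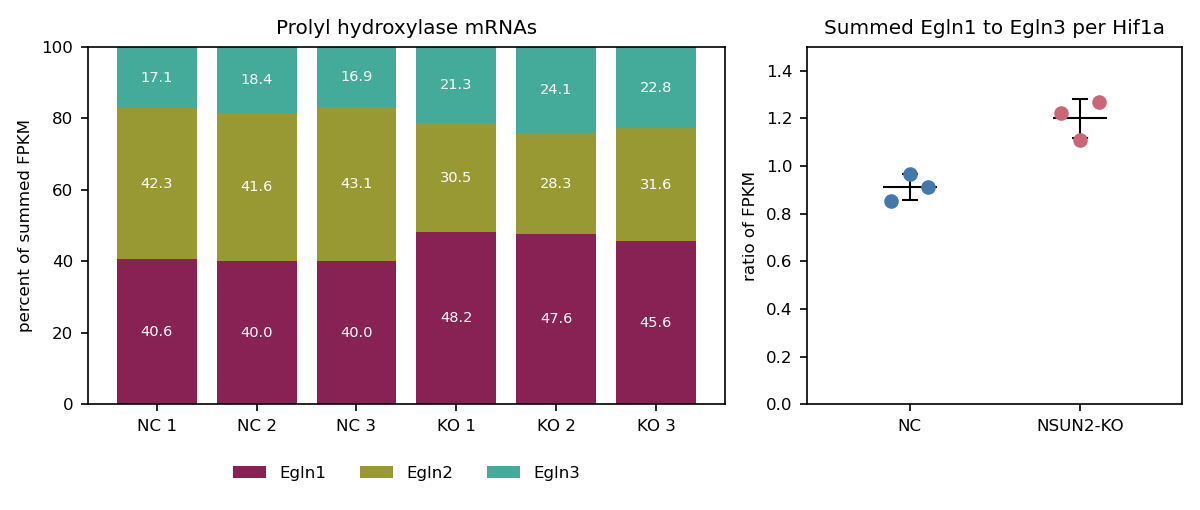
Left, Egln1, Egln2 and Egln3 as percent of their summed FPKM in each library (NC and KO for NSUN2-KO, replicates 1 to 3). Right, their sum per Hif1a as a ratio of FPKM, with 1 point per library, mean and SD (n = 3). The Egln2 share is 41.6 to 43.1% in NC and 28.3 to 31.6% in NSUN2-KO.

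Vhl (ENSMUSG00000033933, chr6:113623959-113631633, plus strand), the receptor that binds hydroxylated HIF alpha, measured 13.4, 14.0 and 14.8 FPKM in NC and 15.4, 15.5 and 15.1 FPKM in NSUN2-KO. The 3 NSUN2-KO values lay just above the NC values, 15.1 against 14.8 FPKM at the nearest. The log2 fold change was 0.12 (SE 0.04, 95% interval 0.01 to 0.22), and with an unadjusted p of 0.0320 and a limma adjusted p of 0.151 Vhl was not called. An unadjusted p below 0.05 was found in 25.5% of all tested genes.

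Hif1an (ENSMUSG00000036450, chr19:44562850-44576274, plus strand), the asparaginyl hydroxylase, measured 7.78, 7.78 and 7.38 FPKM in NC and 7.97, 7.79 and 8.11 FPKM in NSUN2-KO. The groups did not overlap but nearly touched, with NC replicate 1 at 7.78 and NSUN2-KO replicate 2 at 7.79 FPKM. The log2 fold change was 0.05 with a 95% interval from -0.05 to 0.15 (limma adjusted p = 0.519).

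The order of levels in FPKM, which depends on the gene lengths used, differed between the groups only where Egln1 and Egln3 moved. In NC it ran Hif1a, Egln2, Egln1, Vhl, Arnt, Hif1an, Egln3 and Epas1, from 43.7 to 0.194 FPKM. The neighbours Egln2 and Egln1 overlapped across the NC libraries, as did Hif1an and Egln3. In NSUN2-KO it ran Hif1a, Egln1, Egln2, Vhl, Egln3, Arnt, Hif1an and Epas1, and Egln2 and Vhl overlapped, with means of 15.4 FPKM each. Egln3 lay below Arnt in each NC library and above it in each NSUN2-KO library.

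The genes whose levels followed each member most closely were taken as the 3 protein-coding genes with the highest Pearson correlation of log2(FPKM + 1) over the 6 libraries. For Egln1 they were Me2, an NADP-linked malic enzyme (r = 0.999), Il12b, the p40 subunit of IL-12 (r = 0.996), and Cd14, the LPS co-receptor (r = 0.996). For Egln3 they were Spg21 (r = 0.997), P4ha1, a collagen prolyl hydroxylase subunit (r = 0.995), and Txnrd1, thioredoxin reductase (r = 0.994). For Hif1a they were the chemokine Cxcl9 (r = 0.992), Akr1b10 (r = 0.990) and Mrpl19 (r = 0.988). They were Clec4a2, Mtmr6 and Tmem168 for Arnt, Akt1, Sh2d3c and Cog3 for Egln2, Ociad2, Rrm2b and Slc30a4 for Vhl, and Lsm1, Atn1 and Erap1 for Hif1an, with r from 0.964 to 0.994. The 6 points are 2 groups of 3, and the levels of Egln1 and Egln3 separate these groups widely. A gene that separates them as widely in the same direction therefore has a high r. Hif1an, which separated them narrowly, had r = 0.682 with Egln1 and 0.696 with Egln3. For every member the 3 genes were the highest among all protein-coding tested genes on only 6 points. A high r can come from that selection alone, and shared regulation was not tested. Egln1 and Egln3 themselves had r = 0.977 with each other and r = -0.382 and -0.402 with Hif1a.

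Of 7 tested members of the VHL ubiquitin ligase and the neddylation system that activates it, 0 were called, where 8.49% of all tested genes were, so a count of 0 among so few does not set them apart. Their median log2 fold change was -0.01, as was that of all tested genes. Rbx1, the RING subunit, measured 8.68 ± 0.23 in NC and 8.43 ± 0.50 FPKM in NSUN2-KO. Eloc, which with Elob ties VHL to the cullin Cul2, measured 11.5 ± 0.36 and 11.7 ± 0.70 FPKM. Nedd8, its conjugating enzyme Ube2m and the exchange factor Cand1 had log2 fold changes of -0.03, -0.03 and 0.01.

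Among 20 tested HIF coactivators and regulators of HIF stability, 2 rose and 0 fell, a share near the 8.49% called over all tested genes. Hsp90aa1, the inducible form of the chaperone HSP90, which binds HIF-1 alpha, rose from 81.0 ± 2.32 to 103.4 ± 1.20 FPKM (log2 fold change 0.35, limma adjusted p = 0.00107). Cited2, which competes with HIF alpha for the coactivators p300 and CBP and is itself a HIF target, rose from 18.7 ± 1.08 to 21.8 ± 0.53 FPKM (log2 fold change 0.21, adjusted p = 0.0352). Hsp90aa1 was called in 20 of 20 fits and Cited2 in 12 of 20. The list held 1 higher gene without NC replicate 2 or 3, or any one NSUN2-KO replicate. Os9, Ube2o and Sirt1 had log2 fold changes of -0.10, 0.16 and 0.22 (adjusted p from 0.104 to 0.161). The coactivator genes Ep300 and Crebbp measured 16.0 ± 0.41 and 5.96 ± 0.29 FPKM in NC and 16.2 ± 0.67 and 6.05 ± 0.31 FPKM in NSUN2-KO, both named with their values already seen.

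Of 19 relatives of HIF in the bHLH-PAS family and their coactivators, 7 were tested and 0 were called, where 8.49% of all tested genes were. Ncoa3 came nearest, at 33.1 ± 1.00 in NC and 30.1 ± 0.91 FPKM in NSUN2-KO (log2 fold change -0.13, limma adjusted p = 0.0790). Per2, Arntl, Ncoa2 and Clock had adjusted p from 0.372 to 0.879. Hif3a, the third HIF alpha gene, measured 0.0544 ± 0.0094 and 0.0987 ± 0.053 FPKM, and Arnt2 0.141 ± 0.036 and 0.204 ± 0.048 FPKM, both named after their values were seen. Both lie far below Hif1a and Arnt in FPKM.

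The EGLN enzymes belong to a large family that needs oxygen and 2-oxoglutarate, and 33 other oxygen-dependent dioxygenases were tested. Of these 5 rose and 0 fell, where 4.19% of all tested genes were higher and 4.3% lower, with a median log2 fold change of 0.05. P4ha1 and P4ha2, the catalytic subunits of collagen prolyl hydroxylase, rose from 66.9 ± 0.78 to 79.3 ± 1.09 FPKM (log2 fold change 0.24, limma adjusted p = 0.00309) and from 11.1 ± 0.64 to 14.4 ± 0.63 FPKM (log2 fold change 0.35, adjusted p = 0.00945). Plod2, a collagen lysyl hydroxylase, rose from 0.764 ± 0.068 to 1.41 ± 0.081 FPKM. Its NC mean is under 1 FPKM, so Plod2 entered the test and this count only through the group where it is high. The histone demethylase Kdm3a rose from 10.7 ± 0.65 to 12.9 ± 0.34 FPKM, and Alkbh5, an RNA m6A demethylase, from 34.1 ± 0.90 to 38.4 ± 1.74 FPKM. P4ha1, P4ha2, Plod2 and Kdm3a are known HIF targets in other cells. P4ha1 and P4ha2 were called in 20 of 20 fits, Plod2 in 15 of the 19 it entered, Kdm3a in 13 of 20 and Alkbh5 in 10 of 20. The list held 3 higher genes when NC replicate 2 or NSUN2-KO replicate 3 was left out, and 2 when NC replicate 3 or NSUN2-KO replicate 1 was left out.

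Textbook HIF target genes other than Egln1 and Egln3 were mostly higher. Of 38 tested, 26 rose and 1 fell, where 4.19% of all tested genes were higher and 4.3% lower, and the median log2 fold change was 0.23 against -0.01 for all tested genes. Among those with the smallest p were Ero1l, Slc2a1, Hk2 and Ak4, with log2 fold changes of 0.78, 0.43, 0.54 and 0.72. Ak4, a mitochondrial adenylate kinase, rose from 7.36 ± 0.47 to 12.8 ± 1.01 FPKM. Ednrb, an endothelin receptor, was the one that fell, from 3.66 ± 0.21 to 2.39 ± 0.12 FPKM (log2 fold change -0.46, limma adjusted p = 0.00573). P4ha1 and Kdm3a are in this list too. The list was drawn up with earlier results of these data known, so its counts are not independent of them. The count of higher targets was 15 without NC replicate 3 and 15 without NSUN2-KO replicate 1. Egln1 at 0.56 and Egln3 at 0.67 lay at the upper end of these targets, while the mRNA of Hif1a, at -0.03, lay near the median of all genes.

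**Figure D4:**
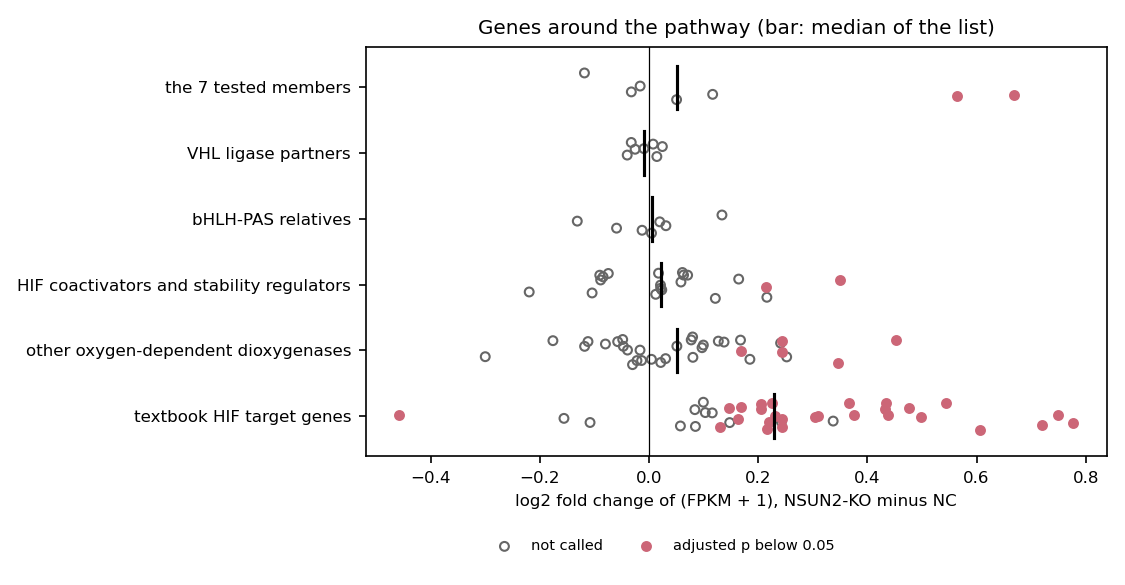
Log2 fold change of FPKM + 1, NSUN2-KO minus NC, for the 7 tested members and the tested genes of 5 lists around the pathway, with 1 point per gene (red where the adjusted p was below 0.05) and a bar at each median. The 7 VHL ligase partners lie near 0 with 0 called, and 26 of the 38 HIF targets are red on the right.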

How the data were processed

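RNA-seq of 6 libraries was deposited by the authors as 1 table of FPKM per gene with gene lengths and biotypes. The submitters' processing notes name CASAVA 1.8, fastp, HISAT2 2.0.5, featureCounts 1.5.0-p3, DESeq2 1.20.0 and the build GRCm38 (mm10), and the design text states 3 biological replicates per group but 2 for the authors' own test. Multiplying FPKM by gene length in kilobases and dividing by each library's step (0.0218 to 0.0285 FPKM for 1 read per kilobase) gave whole reads for 100% of values (tolerance 0.01 read), 35019033 to 45636131 per library.

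The 9443 genes averaging 1 FPKM or more were tested on log2(FPKM + 1) with limma 3.58.1 in R 4.3.3 (empirical Bayes with a mean-variance trend, NSUN2-KO minus NC, Benjamini-Hochberg over all tested genes, threshold 0.05). This scale understates changes of genes near 1 FPKM. Ratios and shares were tested by exact two-sided permutation over libraries. The fit was tested on simulated data. Alternatives were other pseudocounts, filters, scalings, voom on recovered reads, a replicate block, GC content and length correction, and each library left out.

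The members and gene lists were chosen with earlier results of these data known. Named genes are the members, the 5 genes of each list with the smallest p (1 of them is not reported here), and the 3 protein-coding genes most like each member. Exon overlaps and GC content used GENCODE vM21.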

Additional observations from a re-analysis of the deposited data

How the results depend on the processing

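Egln1 and Egln3 were called higher, and Hif1a, Arnt, Egln2, Vhl and Hif1an were not called, in each of 20 fits, so the count of members called stayed at 2 higher and 0 lower. The log2 fold change of Arnt ranged from -0.041 to 0.00018 when a library was left out, and its sign reversed without NC replicate 1. The number of genes called, 802, was 265 when low genes were kept, 526 when no mean-variance trend was fitted, 1372 with limma voom on recovered reads, 1332 with voom on genes of at least 10 reads (chosen after seeing the data), 351 with the replicate block, and 270 to 595 when a library was left out (338 and 287 with NC replicate 2 or 3 left out, and 270 and 447 with replicate 1 or 2 of NSUN2-KO left out). Higher coactivators and stability regulators numbered 1 with no filter, without the trend and with the replicate block, 4 with the GC content and length trend removed, and 1 to 3 with a library left out, and 0 to 1 were then lower. Lower bHLH-PAS relatives numbered 1 with either voom fit. Higher dioxygenases numbered 2 with no filter and with the replicate block, 11 and 9 with the voom fits, 9 (and 1 lower) with the GC content and length trend removed, and 2 to 4 with a library left out. Higher HIF targets numbered 15 with no filter and 15 to 23 with a library left out, and 0 targets were lower with a filter at 5 FPKM. The difference in summed hydroxylases per Hif1a was 0.290 in FPKM and 0.162 in reads not divided by gene length. Apart from the filters and left-out libraries, which change the genes or samples tested, the cause was not tested. Libraries with the same number did not deviate together (correlations of -0.0095, -0.030 and 0.0034), so the replicate block pairs them by number only. With 3 libraries a group and 17 to 52 reads per library, the Epas1 difference could not be resolved.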
